A study of Mus musculus with 4 samples.

Results

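The genes described here build and run the cytoskeleton of the cell: 49 genes for actin and its turnover, actin cross-linkers, myosins, membrane linkers, nuclear lamins and tubulins. They were taken by gene symbol from a deposited table of 24312 listed genes, and all 49 had enough reads to be tested. In mouse CD8 T cells that overexpressed the transcription factor BATF, 4 of the 49 differed from cells with the empty vector. Tubb6, a beta-tubulin, and Shroom3, an actin-binding regulator of cell shape, were higher. Actn1, an alpha-actinin, and Pdlim5, an adaptor that binds alpha-actinin, were lower. Of all 13008 genes tested, 1.09% were called in either direction, 0.884% as higher and 0.208% as lower. The 49 genes were chosen with earlier results of these data known, so a larger share of calls among them is not a finding.

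Poly(A) RNA was sequenced from P14 CD8 T cells of C57BL/6 mice, whose transgenic T cell receptor recognises the gp33 peptide of a mouse virus. All cells were activated with 100 ng/ml gp33 for 1 day and spin-transduced with a retrovirus. The MIG group received the vector alone, which expresses GFP, and the BATF group received the same vector carrying BATF. Both groups were then activated for 1 further day, grown for 2 days in 10 ng/ml IL-2, sorted for CD8 and GFP, and held for 2 days in 1 ng/ml IL-2. The BATF group thus carried BATF from the viral vector as well as from its own gene. Each group had 2 libraries, which the design text calls biological replicates without saying whether they came from separate mice. A p-value here thus weighs a difference against the spread of libraries that may share an animal or a culture. The smallest library held 19004726 fragments and the largest 24795707, with 12871 to 13227 genes detected at 10 fragments or more. Batf itself was at 36.1 and 26.5 CPM (fragment counts scaled to the library total) in MIG and at 1342 and 934 CPM in BATF, which matched the labels. The 8 marker genes of T cells were all detected.

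Actin exists as monomers and as filaments that grow and shrink all the time. Profilin, cofilin, thymosins and capping proteins set how many monomers are free and how long a filament lasts, and the ARP2/3 complex starts branches from existing filaments. Cross-linkers such as the alpha-actinins, filamin and plastin tie filaments into bundles and networks, myosins pull on them, and ERM proteins (ezrin, radixin and moesin) fasten them to the plasma membrane. In T cells this machinery drives migration, the formation of the contact with a target cell and the directed release of cytotoxic granules, while microtubules carry the granules to that contact.

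The cytoskeleton genes were among the most abundant transcripts of these cells. On the deposited FPKM, a fragment count scaled by transcript length and library size, 34 of the 49 averaged at least 100 FPKM over the 4 libraries, 9 lay between 10 and 100 FPKM, and 6 lay under 10 FPKM. Thymosin beta 4, Tmsb4x, which holds actin monomers, ranked 1 of all listed genes at 8420 FPKM, and beta-actin, Actb, ranked 3 at 5642 FPKM. Another 7 stood among the 100 highest: Pfn1, Actg1, Tmsb10, Cfl1, Coro1a, Myl6 and Tubb5. The 49 genes together took 5.14% and 5.09% of the fragments of the MIG libraries and 5.04% and 5.13% of those of the BATF libraries, so the share that went to this machinery was nearly the same in both groups. The 4 called genes came from the lower part of this range, with means of 51.0 FPKM for Actn1, 24.5 for Tubb6, 6.55 for Pdlim5 and 1.72 for Shroom3.

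**Figure D1:**
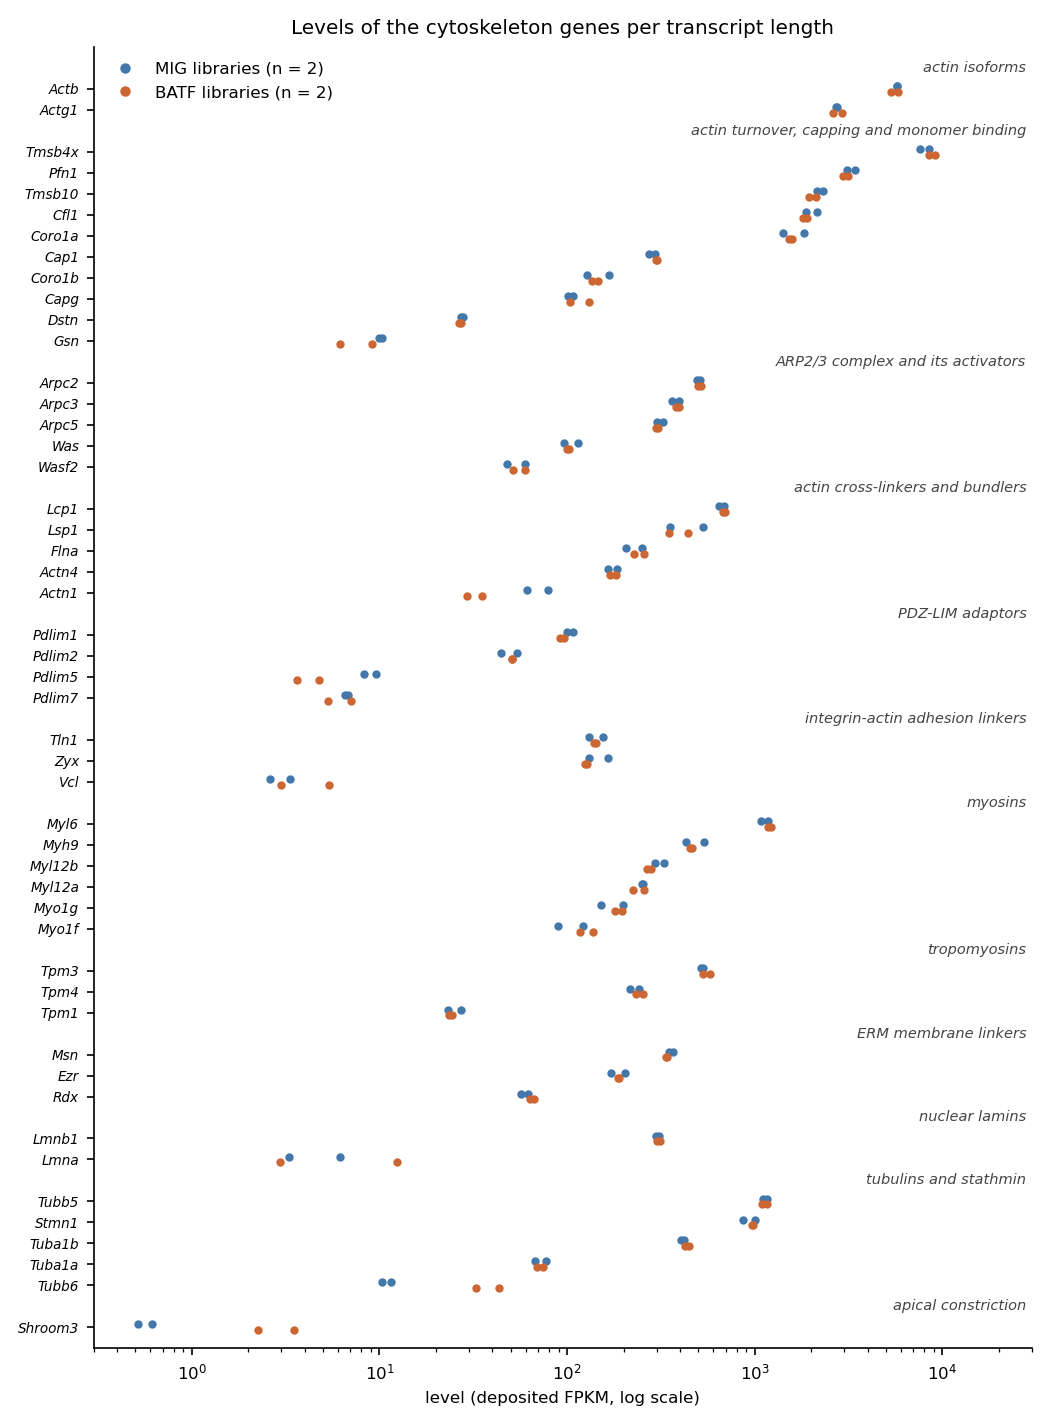
Level of each of the 49 cytoskeleton genes in each library, as deposited FPKM on a log axis, with genes grouped by role and 2 points per group (blue MIG, orange BATF). Levels span from 1.72 FPKM for Shroom3 to 8420 FPKM for Tmsb4x, and for most genes the 4 points lie on top of each other.

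Between the groups, most of the 49 genes differed little. Values here are log2 fold changes of BATF over MIG from edgeR's quasi-likelihood test, and a gene is called when its Benjamini-Hochberg adjusted p over all genes tested is below 0.05. The median over the 49 genes was 0.01, beside −0.01 over all genes tested, and 26 values were positive and 23 negative. The value lay within 0.2 of 0 for 40 of the 49 (81.6%), beside 65.5% of all genes tested. These shares were not matched for level, as the median was 487 CPM for the 49 genes and 23.7 CPM for all genes tested. None of the 45 genes that were not called had an unadjusted p under 0.05, and DESeq2 called the same 4 genes. For 40 of these 45 the 95% interval lay inside a 1.5-fold change in either direction, and for 43 it lay inside a 2-fold change. Such intervals are narrow where many fragments are counted, and 58.9% of all genes tested had one inside 1.5-fold. The BATF libraries lay wholly above the MIG libraries for 10 of the 49 genes and wholly below for 11, beside 19.2% and 19.4% of all genes tested, or 38.7% in either direction.

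**Figure D2:**
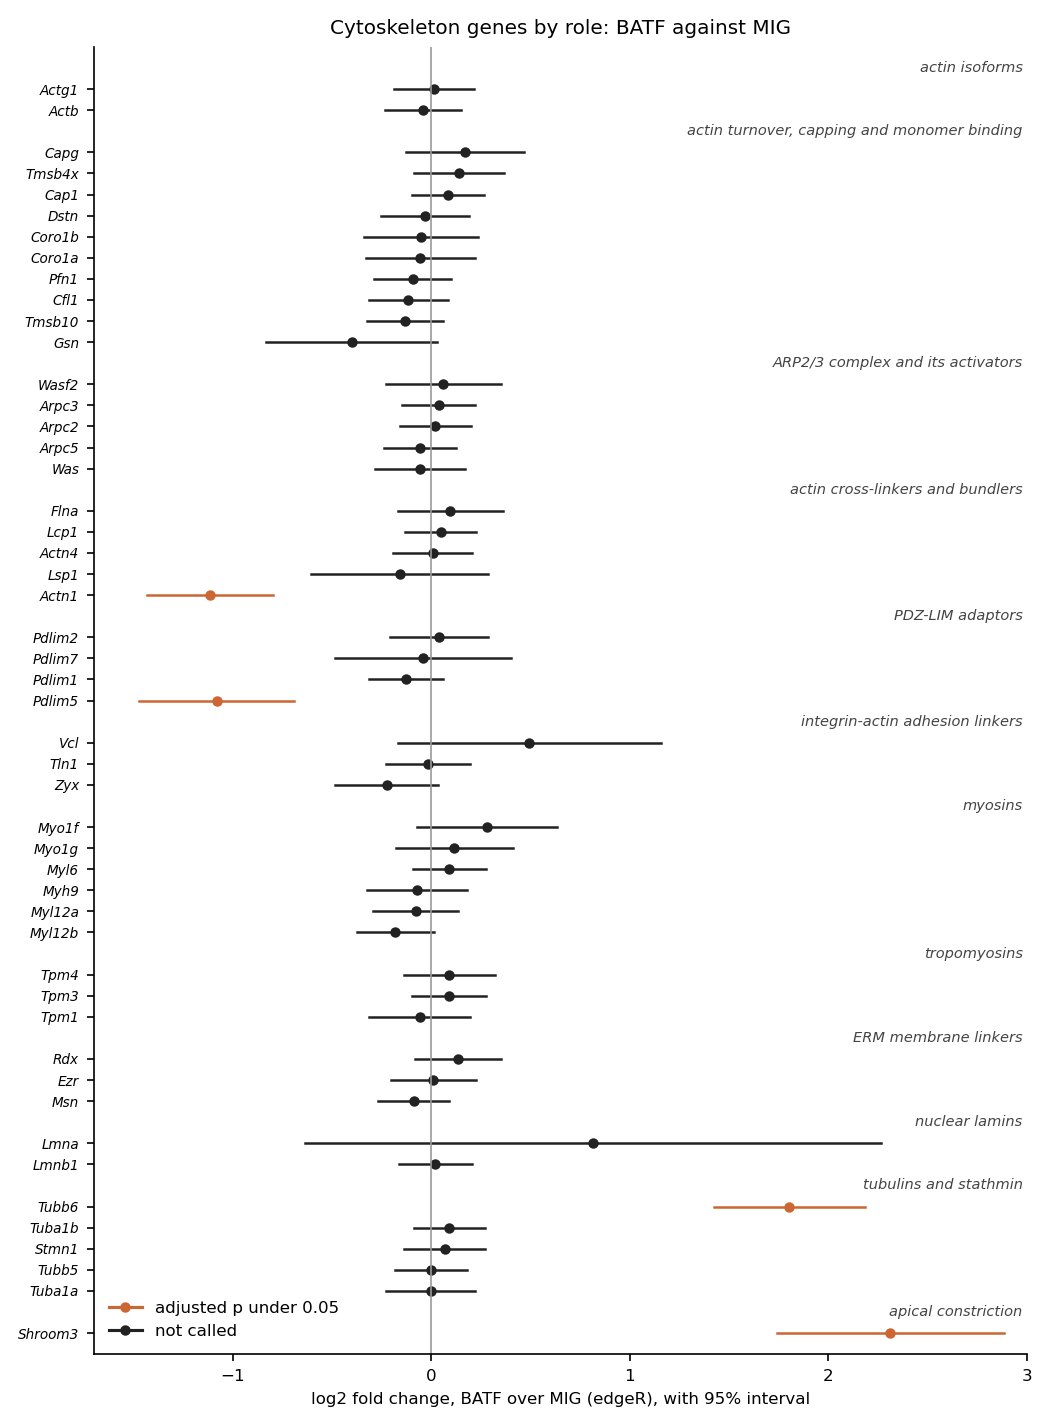
Log2 fold change of BATF over MIG for each cytoskeleton gene, by role, with the 95% interval from edgeR (2 libraries a group). Orange marks the 4 genes called at an adjusted p under 0.05, and 40 of the 49 values lie within 0.2 of 0.

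Libraries of a group lay close together for most of these genes. The median fold between the MIG libraries was 1.11 and that between the BATF libraries was 1.05, and 33 of the 49 genes differed by less than 1.2-fold within both groups. Lmna had the widest spread, 2.02-fold in MIG and 4.07-fold in BATF, and its level was low at 6.19 FPKM.

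The actin cross-linkers held the first of the changes. Actn1, alpha-actinin 1, bundles antiparallel actin filaments and ties them to adhesion sites. Its level was 279 and 223 CPM in MIG and 106 and 125 CPM in BATF. The groups did not overlap, and the highest BATF library stood well below the lowest MIG library. Actn1 fell by 1.11 on the log2 scale (SE 0.13, 95% interval −1.43 to −0.80, edgeR adjusted p = 0.0212), which is 2.17-fold lower. The values rest on 6830 and 4594 fragments in the MIG libraries and on 2019 and 2728 in the BATF libraries.

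Its close relative Actn4, alpha-actinin 4, which also cross-links actin, was at 668 and 618 CPM in MIG and 629 and 664 CPM in BATF. Its groups overlapped, with a log2 fold change of 0.01 (95% interval −0.19 to 0.21, edgeR adjusted p = 0.996). Of the summed FPKM of the 4 alpha-actinin genes, Actn1 made up 29.3% and 26.4% in MIG and 14.5% and 16.0% in BATF. Actn4 made up 68.8% and 71.8% in MIG and 84.2% and 82.9% in BATF. The sum itself was 269 and 230 FPKM in MIG and 201 and 219 FPKM in BATF, so alpha-actinin RNA was made up more of Actn4 in both BATF libraries. The ratio of Actn1 to Actn4 on the FPKM scale was 0.426 and 0.368 in MIG and 0.173 and 0.193 in BATF. The difference between the 2 genes' changes was not tested.

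The other cross-linkers were abundant and were not called. Lcp1, the plastin of leukocytes, had the highest level per length of this role, at 676 FPKM. It was at 2430 and 2377 CPM in MIG and 2472 and 2496 CPM in BATF, a log2 fold change of 0.05 (95% interval −0.13 to 0.23, edgeR adjusted p = 0.935). Filamin A, Flna, a large hinge-shaped cross-linker, had a log2 fold change of 0.10. For Lsp1, a leukocyte actin-binding protein, it was −0.16, with libraries up to 1.44-fold apart within MIG.

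The PDZ-LIM adaptors bind alpha-actinin through their PDZ domain and carry LIM domains that recruit other proteins. Pdlim5 was at 37.3 and 44.2 CPM in MIG and at 16.6 and 21.8 CPM in BATF, with no overlap between the groups. It fell by 1.08 on the log2 scale (SE 0.16, 95% interval −1.47 to −0.69, edgeR adjusted p = 0.0391), which is 2.12-fold lower. Among the 4 called genes it was the nearest to the threshold.

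Pdlim1, the most abundant member of this role at 98.6 FPKM, was at 139 and 134 CPM in MIG and 123 and 128 CPM in BATF. Its BATF libraries lay below its MIG libraries, but by little, with a log2 fold change of −0.13 (95% interval −0.31 to 0.06, edgeR adjusted p = 0.688). Pdlim2 and Pdlim7 had log2 fold changes of 0.04 and −0.04, and their groups overlapped. Pdlim5 made up 4.68% and 5.97% of the summed FPKM of 6 PDZ-LIM genes in MIG and 2.39% and 2.98% in BATF. It lay above Pdlim7 in both MIG libraries and below it in both BATF libraries, while Pdlim1 kept 60.4% to 61.9% of the sum in all 4.

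The beta-tubulins held the change with the smallest p among these genes. Beta-tubulins pair with alpha-tubulins to form the subunits of microtubules, and Tubb6 is one of several isotypes. It was at 15.8 and 18.5 CPM in MIG and at 51.9 and 67.7 CPM in BATF, so that every BATF library was more than double every MIG library. Tubb6 rose by 1.80 on the log2 scale (SE 0.16, 95% interval 1.42 to 2.18, edgeR adjusted p = 0.00856), which is 3.49-fold.

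Tubb6 remained a minor isotype after this rise. It made up 0.618% and 0.735% of the summed FPKM of 8 beta-tubulin genes in MIG and 1.99% and 2.54% in BATF. The main isotype, Tubb5, was at 2818 and 2792 CPM in MIG and 2758 and 2856 CPM in BATF, with a log2 fold change of 0.00 (95% interval −0.18 to 0.18, edgeR adjusted p = 1.00), and it held 66.7% to 70.1% of the sum. Tubb4b, the second isotype by level, held 28.6% to 30.6% and had a log2 fold change of 0.11 (95% interval −0.07 to 0.29, edgeR adjusted p = 0.749). The low isotypes Tubb2a, Tubb3, Tubb4a and Tubb2b had log2 fold changes of −0.29, 0.57, 0.47 and 1.18. Their edgeR adjusted p values were 0.623, 0.323, 0.758 and 0.324. None was called, but the unadjusted 95% intervals of Tubb3 (0.10 to 1.04) and Tubb2b (0.21 to 2.17) lay above 0. Summed over the family, beta-tubulin FPKM was 1661 and 1573 in MIG and 1645 and 1709 in BATF. Alpha-tubulins Tuba1a and Tuba1b had log2 fold changes of −0.00 and 0.09, and stathmin, Stmn1, which binds free tubulin, had 0.07.

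**Figure D3:**
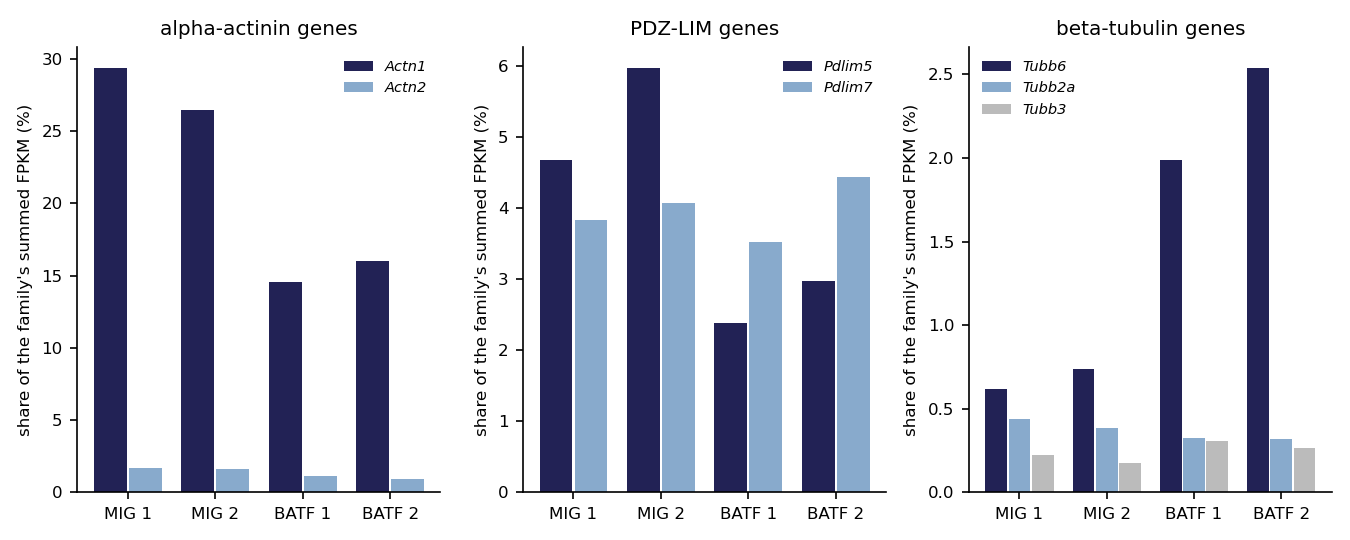
Share of the summed deposited FPKM of 3 gene families taken by the called gene (dark bars) and by minor relatives (lighter bars) in each library; the abundant relatives Actn4, Pdlim1, Pdlim2, Tubb5 and Tubb4b count in the sums and are not drawn. Actn1 lies between 26.4% and 29.3% in MIG and between 14.5% and 16.0% in BATF, and Tubb6 between 0.618% and 0.735% in MIG and between 1.99% and 2.54% in BATF.

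Shroom3 had the largest fold change of the 49 genes and the lowest level per length. Its protein binds actin filaments, and it is best known from epithelia, where it narrows the apical side of cells. It was at 4.17 and 3.69 CPM in MIG and at 15.4 and 23.7 CPM in BATF, without overlap. Shroom3 rose by 2.31 on the log2 scale (SE 0.24, 95% interval 1.74 to 2.88, edgeR adjusted p = 0.0148), which is 4.97-fold. Few fragments lie behind these values, 102 and 76 in MIG against 292 and 515 in BATF. The relatives Shroom1, Shroom2 and Shroom4 were at 0.128 FPKM or less in every library and were too low to be tested, so Shroom3 made up 65.0% to 80.5% of the little shroom RNA in MIG and 93.9% and 96.4% in BATF.

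**Figure D4:**
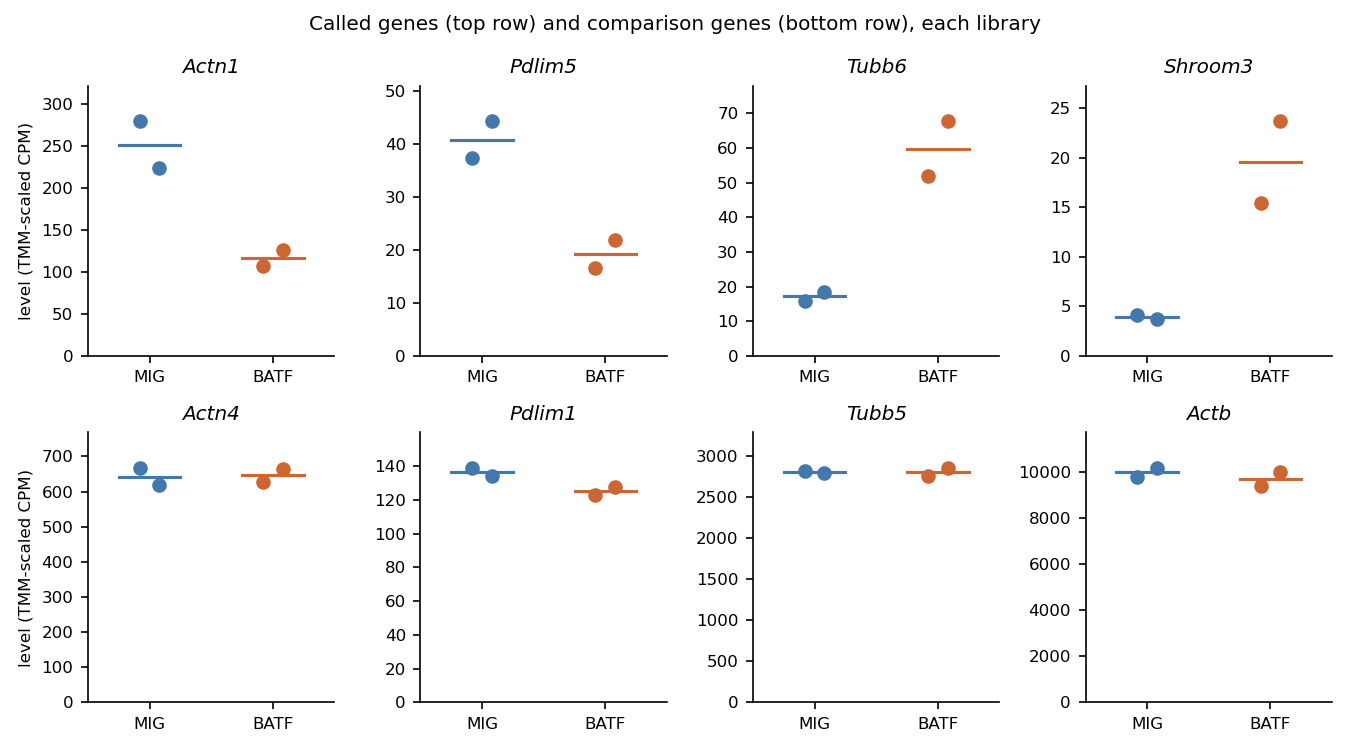
Level of the 4 called genes (top row) and of 4 comparison genes (bottom row) in each library, in TMM-scaled CPM, with a line at the group mean (n = 2 a group) and each axis from 0. The groups separate in the top row; Actn4, Tubb5 and Actb overlap, and Pdlim1 lies 122.7 to 127.6 CPM in BATF and 134.3 to 139.1 CPM in MIG.

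The actins and the genes of actin turnover were not called. Actb was at 9807 and 10204 CPM in MIG and 9423 and 10038 CPM in BATF, and its groups overlapped, with a log2 fold change of −0.04 (95% interval −0.23 to 0.15, edgeR adjusted p = 0.953). Gamma-actin, Actg1, the other cytoplasmic actin, had a log2 fold change of 0.01, and Actb stood at 1.99 to 2.1 times Actg1 on the FPKM scale in every library. Tmsb4x was at 3555 and 4092 CPM in MIG and 4098 and 4320 CPM in BATF, a log2 fold change of 0.14 (95% interval −0.09 to 0.37, edgeR adjusted p = 0.743). The 10 genes of turnover, capping and monomer binding ranged from −0.40 for Gsn to 0.17 for Capg, 3 positive and 7 negative.

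Gsn encodes gelsolin, which severs and caps filaments in response to calcium, and it had the smallest p among the genes that were not called. It was at 25.1 and 25.0 CPM in MIG and at 15.6 and 22.3 CPM in BATF. Both BATF libraries were below both MIG libraries, but they were 1.44-fold apart from each other, and the log2 fold change of −0.40 was not called (95% interval −0.83 to 0.03, edgeR adjusted p = 0.516). Myl12b, a regulatory light chain of non-muscle myosin, came next, at 242 and 225 CPM in MIG and 203 and 209 CPM in BATF. Its log2 fold change was −0.18 (95% interval −0.37 to 0.01, edgeR adjusted p = 0.517), with no overlap between the groups.

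The branching machinery varied little. The ARP2/3 subunits Arpc2, Arpc3 and Arpc5 and the activators Was and Wasf2, which switch the complex on below the T cell receptor and Rac, ranged from −0.06 to 0.06 on the log2 scale. Arpc2 was at 709 and 711 CPM in MIG and 712 and 730 CPM in BATF, a log2 fold change of 0.02 (95% interval −0.16 to 0.20, edgeR adjusted p = 0.977). The 95% interval lay inside 1.5-fold for all 5.

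Among the integrin-actin linkers, talin, Tln1, which activates integrins, was the most abundant at 142 FPKM. It was at 1291 and 1139 CPM in MIG and 1195 and 1207 CPM in BATF, a log2 fold change of −0.02 (95% interval −0.23 to 0.20, edgeR adjusted p = 0.988). Zyxin, Zyx, an adhesion protein that follows filament strain, had −0.22. Vinculin, Vcl, which reinforces the link from talin to actin, had 0.49 with a wide interval of −0.17 to 1.16, since its BATF libraries at 27.7 and 15.2 CPM were 1.82-fold apart.

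The 6 myosin genes ranged from −0.18 for Myl12b to 0.28 for Myo1f, 3 positive and 3 negative. Myl6, the essential light chain of non-muscle myosin and the most abundant of them per length, was at 484 and 459 CPM in MIG and 496 and 509 CPM in BATF, a log2 fold change of 0.09 (95% interval −0.09 to 0.28, edgeR adjusted p = 0.830). The heavy chain of the main non-muscle myosin, Myh9, had a log2 fold change of −0.07. The class I myosins Myo1f and Myo1g, which link actin to membranes in leukocytes, had 0.28 and 0.12. Tropomyosins wind along filaments and gate the access of myosin, and the 3 genes ranged from −0.06 for Tpm1 to 0.09. Tpm3, the most abundant, was at 1077 and 1098 CPM in MIG and 1121 and 1194 CPM in BATF (edgeR adjusted p = 0.837).

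The ERM linkers were likewise not called. Moesin, Msn, the dominant ERM protein of lymphocytes, was at 1339 and 1323 CPM in MIG and 1271 and 1236 CPM in BATF. Its BATF libraries lay just below its MIG libraries, with a log2 fold change of −0.09 (95% interval −0.27 to 0.09, edgeR adjusted p = 0.835). Ezrin, Ezr, had 0.01 and radixin, Rdx, had 0.14, and Rdx was the one of the 3 whose BATF libraries lay above its MIG libraries. On the FPKM scale Msn at 348 stood above Ezr at 188 and Rdx at 62.2, an order that held in each library.

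The lamins, which form the meshwork under the nuclear membrane, differed in how stable their values were. Lmnb1, the B-type lamin, was at 812 and 818 CPM in MIG and 847 and 807 CPM in BATF, a log2 fold change of 0.02 (95% interval −0.16 to 0.20, edgeR adjusted p = 0.978). Lmna, the A-type lamin, which stiffens nuclei, was at 5.60 and 11.3 CPM in MIG and 5.80 and 23.6 CPM in BATF. The groups overlapped, and one library in each group was high. Its log2 fold change of 0.82 had an interval of −0.63 to 2.27 (edgeR adjusted p = 0.781). Without BATF replicate 1 it was 1.49 and called (edgeR adjusted p = 0.0299), and without BATF replicate 2 it was −0.53, so its direction rested on single libraries.

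The 4 called genes were called by edgeR, DESeq2 and limma-voom alike and with every scaling tried. Fits with 1 library left out called a larger share of all genes than the main edgeR fit, so a call there is no stricter check. With 1 library left out, in fits that assume the lone library to vary like the other group, Tubb6 ranged from 1.60 to 1.98, Shroom3 from 1.97 to 2.59, Actn1 from −1.27 to −0.94 and Pdlim5 from −1.29 to −0.90. Limma on the deposited FPKM called Tubb6 and not the other 3. With a pseudocount of 1 its adjusted p was 0.0214 for Tubb6, 0.0629 for Actn1, 0.0738 for Pdlim5 and 0.0726 for Shroom3, all in the same directions. Of all genes tested, 2.73% were called by DESeq2, 0.946% by limma-voom, and 0.476% and 0.349% by limma on FPKM with pseudocounts of 0.1 and 1. With edgeR the share was 1.12% and 1.18% with RLE and upper-quartile scaling and 1.53% without a filter on low counts. Leaving out BATF replicate 1 or 2 gave 1.26% and 1.65%, and leaving out MIG replicate 1 or 2 gave 2.44% and 2.51%. On the FPKM scale with a pseudocount of 1, Shroom3 had a log2 fold change of 1.29, as a pseudocount shrinks the change of low genes.

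**Figure D5:**
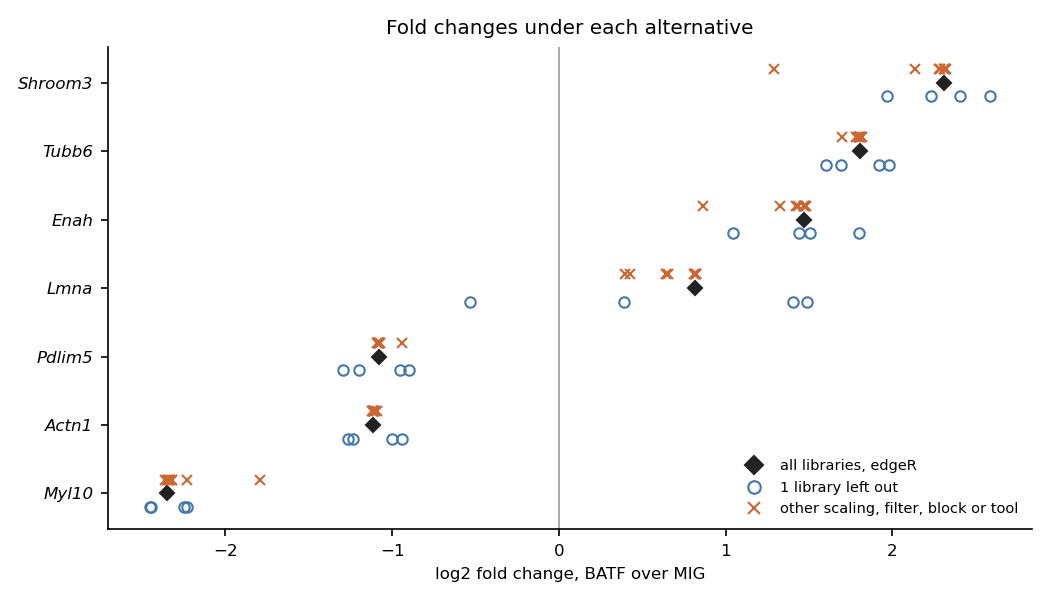
Log2 fold change of BATF over MIG for the 4 called genes, for Lmna, and for the further cytoskeleton genes Enah and Myl10, with all libraries (black diamonds), with 1 library left out (blue circles) and with another scaling, filter, block or tool (orange crosses). The called genes keep their sign in every setting; Lmna turns to −0.53 without BATF replicate 2.

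BATF binds DNA with JUN partners at AP-1 elements, and serum response factor, a regulator of many actin genes, binds the CArG box, so both motifs were looked up in promoter windows. RefSeq windows on GRCm38.p6, from 250 bases before to 50 after each transcription start, were matched for 42 of the 49 genes, while Actb, Coro1b, Lsp1, Pdlim2, Lmnb1, Tubb6 and Stmn1 had none. The AP-1 element TGANTCA, which reads the same on both strands, was in the windows of 5 of the 42 (11.9%), beside 8.97% of the 27025 genes with a window. A CArG box on either strand was in those of 3 of the 42 (7.14%), beside 1.81% of the genes. The windows of Actn1, Pdlim5 and Shroom3 held neither motif. The genes with a match are Zyx, Actn4, Ezr, Myl12a and Lmna for the AP-1 element and Myl6, Actg1 and Vcl for the CArG box. None of these 8 was called, beside 1.09% of all genes tested, a number too small to relate the motifs to the calls. The matches before the start are printed because they are where the letters occur among these genes, with the motif in capitals; a match is a description of letters and was not tested for binding.
Zyx: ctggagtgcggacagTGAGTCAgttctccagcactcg
Actn4: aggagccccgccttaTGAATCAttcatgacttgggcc
Ezr: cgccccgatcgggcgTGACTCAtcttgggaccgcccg
Myl12a: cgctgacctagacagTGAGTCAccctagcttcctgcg
Myl6: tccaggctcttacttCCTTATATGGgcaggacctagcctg
Actg1: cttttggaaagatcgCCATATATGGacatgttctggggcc
Vcl: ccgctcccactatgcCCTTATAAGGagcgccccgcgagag
On GRCm38.p6 these stretches lie at chr6:42349692-42349728 on the plus strand for Zyx, chr7:28962480-28962516 on the minus strand for Actn4, and chr17:6782791-6782827 on the minus strand for Ezr. Myl12a is at chr17:71002649-71002685, Myl6 at chr10:128493035-128493074 and Actg1 at chr11:120348561-120348600, all on the minus strand, and Vcl is at chr14:20929156-20929195 on the plus strand. The motifs start 121, 169, 32 and 137 bases before the transcription start for Zyx, Actn4, Ezr and Myl12a, and 50, 90 and 227 bases before it for Myl6, Actg1 and Vcl.

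The wider machinery was read the same way. A list of 185 further cytoskeleton genes, among them the other ARP2/3 subunits, formins, spectrins and tubulins, had 162 genes tested. None was called as higher and 1 as lower by edgeR, beside 115 and 27 of all 13008 genes tested, a share near the background. At an unadjusted edgeR p under 0.05 the list had 20 higher and 9 lower of its 162, beside 870 and 532 of all 13008. Both are larger shares of the list than of all genes, and this list too was chosen with earlier results known. The median log2 fold change of the list was −0.01. DESeq2 called 4 as higher and 4 as lower, and limma-voom called 0 and 1. The gene called was Myl10, a myosin light chain gene at a low level, with 3.80 and 3.25 CPM in MIG and 0.738 and 0.643 CPM in BATF. Myl10 fell by 2.35 on the log2 scale (SE 0.29, edgeR adjusted p = 0.0229).

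A few further genes lay just outside the threshold and are named after their values were seen. Enah, an actin polymerase of the Ena/VASP family, was at 11.2 and 10.6 CPM in MIG and 22.4 and 37.9 CPM in BATF, with a log2 fold change of 1.47 ± 0.25 (± SE) and an adjusted p of 0.0531 from edgeR. With 1 library left out its log2 fold change ran from 1.04 to 1.80. Enah was called by DESeq2 (adjusted p = 3.72e-07), with upper-quartile factors (edgeR adjusted p = 0.0494) and without a filter on low counts (edgeR adjusted p = 0.00104). It was not called with RLE factors (edgeR adjusted p = 0.0507), by limma-voom (adjusted p = 0.0815) or by limma on FPKM with pseudocounts of 0.1 and 1 (adjusted p = 0.193 and 0.208). Actn2, another alpha-actinin, was at 12.7 and 10.8 CPM in MIG and 6.59 and 5.93 CPM in BATF, a log2 fold change of −0.92 (edgeR adjusted p = 0.0689). Tns1, a tensin of adhesion sites, was at 26.5 and 21.1 CPM in MIG and 8.44 and 12.5 CPM in BATF, a log2 fold change of −1.18 (edgeR adjusted p = 0.0708). With 1 library left out, log2 fold changes ran from −1.03 to −0.79 for Actn2 and from −1.49 to −0.93 for Tns1. Both were called by DESeq2 (adjusted p = 0.0179 for Actn2 and 8.05e-05 for Tns1) and without a filter on low counts (edgeR adjusted p = 0.0192 and 0.00386). Neither was called by limma-voom (adjusted p = 0.0822 and 0.0696) or by limma on FPKM, where adjusted p ranged from 0.130 to 0.131 for Actn2 and from 0.207 to 0.227 for Tns1.

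Markers of cell identity were read beside these results. The 8 T cell genes, Cd8a and Cd3e among them, all had negative log2 fold changes with a median of −0.16, and none was called by edgeR, while 3 had an unadjusted p under 0.05. Their summed level was 3839 and 3741 CPM in MIG and 3189 and 3427 CPM in BATF. In bulk RNA, fewer cells of a type and less RNA per cell cannot be told apart. The 4 CD4 T cell genes summed to 27.0 and 20.9 CPM in MIG and 47.7 and 37.4 CPM in BATF, mostly Zbtb7b, with Cd4 itself under 1 CPM in every library. Zbtb7b had a log2 fold change of 0.95 (edgeR adjusted p = 0.0658) and Cd4 had 0.43, while Foxp3 and Cd40lg had −0.53 and −0.26. None of the 4 was called. Of the B cell genes, Cd79b was at 17.2 and 13.8 CPM in MIG and 12.4 and 11.2 CPM in BATF, without overlap, and was not called (log2 fold change −0.40, edgeR adjusted p = 0.435). The 7 myeloid genes summed to between 6.57 and 12.0 CPM, mostly Itgam and Cd68 with Lyz2 under 1 CPM in every library, and the 4 erythroid genes to between 0.490 and 1.11 CPM. The 12 stromal, endothelial and platelet genes summed to 91.8 and 64.7 CPM in MIG and 64.3 and 57.1 CPM in BATF, mostly Pecam1, with Col1a1 under 1 CPM in every library. The 4 genes listed for NK cells summed to between 1469 and 1816 CPM, nearly all from Nkg7 and Gzma. Ncr1 was at 0.105 CPM or less and Klrb1c at 0.316 CPM or less, so the sum is not read as a level of NK cells. The part of Cd79b and of the T cell, CD4 and stromal sums in the called changes was not tested.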

How the data were processed

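Poly(A) RNA of 4 libraries was analysed, grouped by title into MIG (n = 2) and BATF (n = 2). The submitters' processing notes name TopHat2 2.1.1, Cufflinks 2.2.2, Cuffdiff and mm9, while the sources used here give neither annotation nor strandedness. The deposited table holds, per the file headers, estimated counts of fragments per gene and library and the authors' FPKM. It numbers replicates 0 and 1, read here as 1 and 2; these numbers only name libraries.

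Estimated counts (97.6% whole, exact equality) were rounded, then tested with edgeR 4.0.16 under R 4.3.3: filterByExpr, TMM scaling, quasi-likelihood test of BATF against MIG without covariates, Benjamini-Hochberg adjustment over 13008 genes. The standard error is the coefficient over the square root of the F statistic. Levels of 1 gene across libraries are TMM-scaled CPM, and levels between genes are deposited FPKM. Alternatives used DESeq2 1.42.0 and limma 3.58.1. Only the main edgeR fit was tried on simulated counts, drawn from its own estimated dispersions. This does not test how well the fit suits these libraries.

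Members and lists were chosen with earlier results of these data known. Values in every library are given for members called, members with a log2 fold change of at least 0.5 in size, the member of each role with the highest FPKM, and the 2 nearest the threshold on each side; of the further list, called genes and relatives of called members. Some older symbols were matched through RefSeq synonyms. Reads of near-identical copies (actins, tubulins, thymosins, myosin light chains) and of overlapping genes (Myl12a with Myl12b, Coro1b with Ptprcap) may be split arbitrarily, and without known strand, antisense reads cannot be told apart. Counting noise alone did not account for the differences between replicates (chi-square per gene 17.7 for MIG, 9.49 for BATF), and each library was kept as 1 sample. The summed level of the B cell markers is not reported here.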

Additional observations from a re-analysis of the deposited data

How the results depend on the processing

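Over all genes tested, 142 were called, 115 higher and 27 lower. DESeq2 called 345 (253 and 92), no filter on low counts 349 (266 and 83), limma on log2(FPKM + 0.1) 49 (39 and 10) and on log2(FPKM + 1) 36 (32 and 4), and fits without one library 164 to 327 (134 to 239 and 30 to 128). Higher calls made up 81.0% of all calls, and 60.9% both with the replicate block and without MIG replicate 2. With the replicate number as a block, 1504 genes were called (916 and 588). That fit has 1 residual degree of freedom, and the same-numbered libraries of the 2 groups deviated together (r = 0.461 across 10215 genes, which are not independent replicates), but no label says that a number marks a shared animal or day. It called 5 cytoskeleton genes higher (with Vcl, Myo1f and Lmna) and 4 lower (with Gsn and Zyx). With all libraries, the 2 higher and 2 lower calls otherwise held, except that limma on FPKM gave 1 higher and 0 lower at either pseudocount. Of the further list, calls as higher numbered 0 with all libraries, 4 with DESeq2, 19 with the block, 1 with upper-quartile factors, 3 without filter and 1 to 5 without one library; calls as lower numbered 1, and 4, 11, 3 and 1 to 5 with DESeq2, the block, no filter and without one library. Without one library, role medians ran from −0.15 to −0.00066 for actin turnover, from −0.22 to −0.038 for the PDZ-LIM genes and from −0.24 to 0.74 for the lamins, which were at 0.22 and 0.21 with limma on FPKM at pseudocounts of 0.1 and 1. Signs of some single genes turned: without one library, Actb ran from −0.085 to 0.0028, Lmnb1 from −0.016 to 0.058, Tln1 from −0.10 to 0.077, Tubb5 from −0.022 to 0.024 and Lmna from −0.53 to 1.49. Tubb5 was −0.0035 with DESeq2 and −0.0039 with limma on FPKM at both pseudocounts. The causes were not tested. Pdlim7, Shroom3 and Lmna rest on the fewest fragments of the 49 genes. The 95% intervals of Tubb6 and Shroom3 lie wholly beyond a 2-fold change, while those of Actn1 and Pdlim5 reach past it and also include smaller changes. Among the genes not called, the intervals of Lmna and Vcl reach past a 2-fold change and include 0.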
